A study of Danio rerio with 6 samples.

Results

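The Ets factors etsrp, fli1a, fli1b, erg and ets1 and the SoxF factors sox7 and sox18 were described in zebrafish tails with and without a heartbeat. The members were chosen by gene name, and all 7 were found among the 25745 genes of the deposited table, where etsrp stands as etv2 and ets1 as ETS1. Poly(A) RNA was sequenced from 3 libraries of sih mutant tails and 3 libraries of wild-type (WT) tails. All came from embryos of strain AB at 28 hours after fertilisation, and the comparison asks which tail transcripts differ when the heart does not contract. sih (silent heart) is a mutation of tnnt2a, which encodes cardiac troponin T, and the hearts of these embryos do not contract, per the labels. The labels give no treatment for either group. How many embryos a library holds, and whether libraries of the same genotype came from separate clutches, is not given in the sources used here.

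Ets factors share a DNA-binding domain that recognises a short purine core. In zebrafish, etsrp is the early factor that commits mesoderm to the endothelial lineage, and its loss leaves embryos without most vessels. fli1a and fli1b, a pair of paralogs that correspond to mammalian Fli1, together with erg and ets1, act in the same lineage with overlapping roles. SoxF factors bind DNA through an HMG box. In zebrafish, sox7 and sox18 act redundantly in endothelium, and the loss of both disturbs the separation of arteries from veins.

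Some of the genes fall into neighbouring pairs. In the RefSeq gene order of the zebrafish assembly GRCz12tu, etsrp is followed by fli1b (there fli1rs), and ets1 by fli1a (there fli1). The gene next to erg is ets2, another Ets factor. sox7 and sox18 have no member of the set beside them. The identifiers in the table are ENSDARG00000053868 (etsrp), ENSDARG00000054632 (fli1a), ENSDARG00000040080 (fli1b), ENSDARG00000077304 (erg), ENSDARG00000024431 (ets1), ENSDARG00000030125 (sox7) and ENSDARG00000058598 (sox18).

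Libraries held between 21240839 and 27222955 reads assigned to genes, and values are normalised read counts. tnnt2a had 0, 0 and 3 reads in sih replicates 1, 2 and 3 and 0, 9 and 4 reads in the WT replicates, too few for this heart gene to serve as a check of genotype. Libraries of the same replicate number deviated together from their genotype means (correlations of 0.852 to 0.932 over 13248 genes). Each change is therefore given from 2 limma fits across 22813 genes, 1 without a block and 1 that blocks on replicate number, called paired here. Changes are log2 ratios of sih to WT on log2(value + 1), with the standard error (SE) of the paired fit. P-values were adjusted by the Benjamini-Hochberg method over all genes tested, and 0.05 was the threshold. The p-values measure the spread between these libraries, which may be technical.

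All 7 genes were detected in every library and none passed the threshold in either limma fit. The unblocked limma fit called 0 of the 7 (0% of all genes tested were called), and none had an unadjusted p under 0.05 (0.175 for sox18 to 0.892 for ets1). Unblocked edgeR and DESeq2 fits called 0 of the 7 as well, against 0% and 0.21% of all genes. The paired limma fit also called 0 of the 7, against 4.84% of all genes tested, and 1 of the 7 had an unadjusted p under 0.05, as did 18.8% of all genes tested. Changes ran from -0.07 for fli1a to 0.38 for sox18, with 6 above 0 and 1 below. Their median was 0.08, beside a median of -0.0042 over all genes tested. The normalised counts of the 7 genes summed to between 2173 and 2613 in sih libraries and between 2063 and 2337 in WT libraries. In bulk tail RNA, fewer cells of a type and less RNA per cell cannot be told apart.

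**Figure D1:**
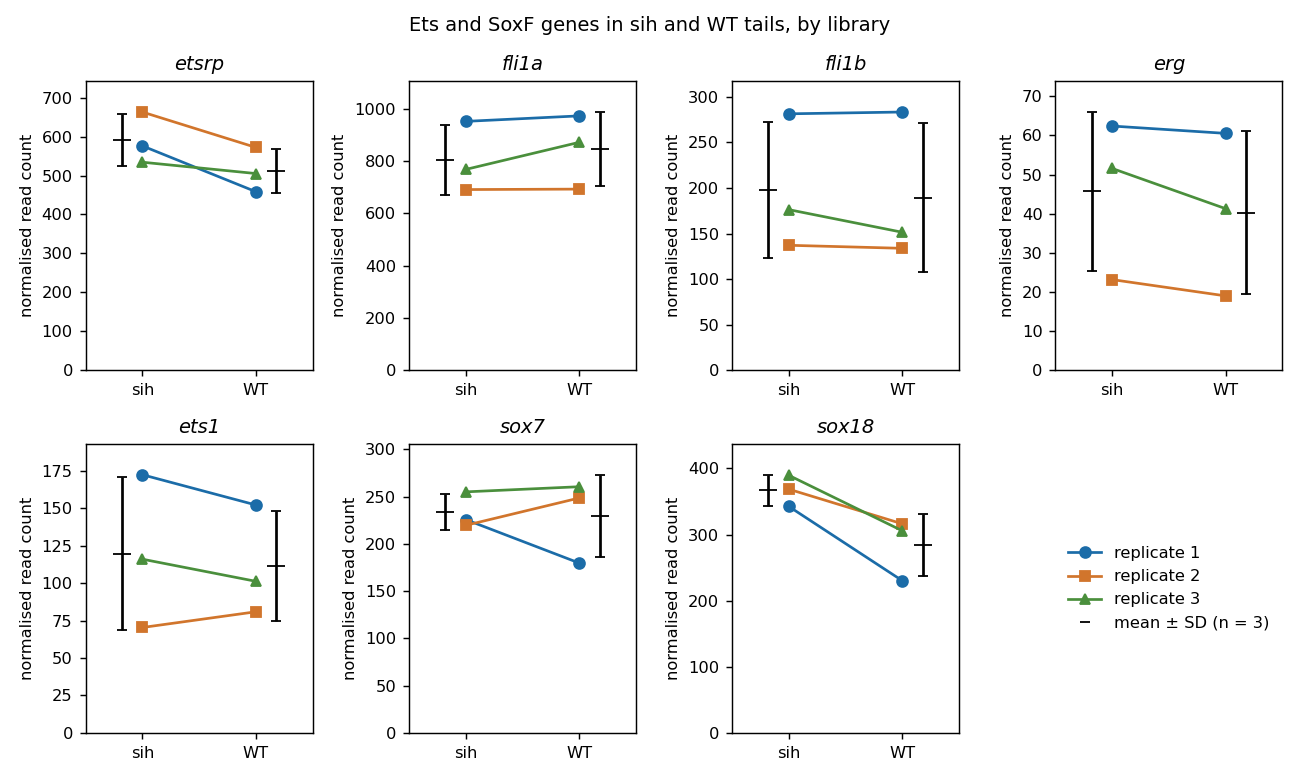
Normalised read counts (y axes, each from 0) of the 7 genes in sih and WT tails, with a line joining the libraries of one replicate number and the mean ± SD of 3 libraries beside each genotype. In sox18 the sih libraries (343 to 390) lie above all WT libraries (230.1 to 316), while the genotypes overlap in the other genes.

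sox18 had the largest difference of the set, and it sat at the edge of the threshold. It was at 343, 369 and 390 normalised counts in sih replicates 1, 2 and 3, against 230.1, 316 and 306 in the WT replicates. Every sih library lay above every WT library, a separation found in 4.22% of all genes tested (2.1% with sih higher). The mean was 367 ± 23.6 in sih tails and 284 ± 46.9 in WT tails (SD, n = 3 each). The change was 0.38 ± 0.12 (unadjusted p = 0.00513, adjusted p = 0.0763 in the paired limma fit), with ratios of 0.57, 0.22 and 0.35 in pairs 1, 2 and 3. Its 95% interval in that fit ran from 1.09-fold to 1.55-fold, and in the unblocked fit from 0.867-fold to 1.95-fold.

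Whether sox18 passed depended on the test and the scaling. edgeR's quasi-likelihood test with the replicate block, run on the whole reads recovered from the table, called it (0.38, adjusted p = 0.0426) among 7.89% of all genes. The paired limma fit with DESeq2 size factors called it as well (adjusted p = 0.0457), among 6.3% of all genes. DESeq2 with the block did not (adjusted p = 0.103, with 4.32% of all 22813 genes called). It gave no adjusted p for some genes, erg and ets1 among them. Scaling by library totals lowered the change to 0.20 (adjusted p = 0.329). That scaling moves the median of all genes to -0.18. Without pair 1, 2 or 3 the change was 0.29, 0.46 or 0.40 and was not called in the paired limma fit (adjusted p = 0.441, 0.126 and 0.285). Without pair 1 that fit called no gene of the table.

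sox7 lacked such a difference. Its values were 226, 220 and 255 normalised counts in sih replicates 1, 2 and 3, against 180, 249 and 260.4 in the WT replicates. It was higher in sih in pair 1 and lower in pairs 2 and 3. The means were 233 ± 18.9 in sih and 229.6 ± 43.6 in WT tails (SD, n = 3 each). The change was 0.04 ± 0.14, with a 95% interval of 0.843-fold to 1.25-fold in the paired limma fit. With scaling by library totals its sign turned (-0.14).

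A ratio within a library does not depend on scaling, so the SoxF pair was also compared directly. The log2 ratio of sox7 to sox18 was -0.60, -0.75 and -0.61 in sih replicates 1, 2 and 3, against -0.36, -0.35 and -0.23 in the WT replicates. The genotypes did not overlap, and in all 3 pairs sox7 was lower relative to sox18 in the sih library. The share of other gene ratios that separate in this way is not given here. The difference was -0.34, or 0.789-fold, with p = 0.1 by an exact two-sided permutation test, the smallest p that 3 libraries against 3 can give. The sign-flip p over the pairs was 0.25, the smallest that 3 pairs can give. Leaving out single libraries gave differences between -0.37 and -0.29. This was 1 of 5 ratios compared within the set, and their p-values are unadjusted.

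**Figure D2:**
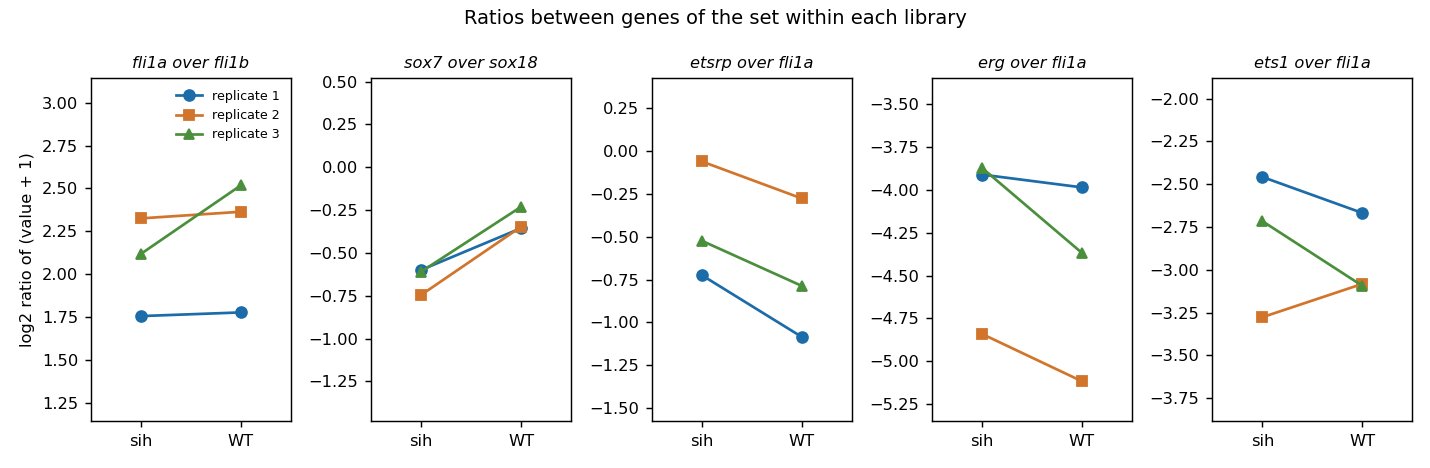
Log2 ratios of value + 1 (y axes, each 2 log2 units high) between genes of the set in sih and WT tails, joined by replicate number. The sox7 to sox18 ratio lies at -0.75 to -0.60 in sih and at -0.36 to -0.23 in WT libraries, and the other 4 ratios overlap between genotypes.

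etsrp, the earliest factor of the set, was at 576, 663 and 534 normalised counts in sih replicates 1, 2 and 3, against 458, 572 and 505 in the WT replicates. It was higher in the sih library of all 3 pairs (log2 ratios of 0.33, 0.21 and 0.08), as were 20.2% of all genes tested, and the genotypes overlapped. Means were 591 ± 65.7 in sih and 512 ± 57.2 in WT tails (SD, n = 3 each). The change was 0.21 ± 0.10 (unadjusted p = 0.0589, adjusted p = 0.290 in the paired limma fit). The interval of that fit, 0.994-fold to 1.34-fold, reaches just below no change. With scaling by library totals the change was 0.02.

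fli1a had the smallest paired SE of the set. sih replicates 1, 2 and 3 had 952, 691 and 768 normalised counts, against 973, 693 and 872 in the WT replicates. It was the member that was lower in sih in all 3 pairs, as were 18.2% of all genes tested, but by only 0.03, 0.00 and 0.18 on the log2 scale. The paired change was -0.07 ± 0.09 and its 95% interval ran from 0.829-fold to 1.09-fold (adjusted p = 0.737 in limma). With scaling by library totals the change was -0.26 (adjusted p = 0.102 in the paired limma fit).

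fli1b, the neighbour of etsrp, had 281, 137 and 176 normalised counts in sih replicates 1, 2 and 3, against 283, 134 and 151 in the WT replicates. Within each pair the libraries differed by at most 0.22 on the log2 scale. The change was 0.08 ± 0.14, with an interval of 0.864-fold to 1.29-fold (adjusted p = 0.810 in the paired limma fit). The log2 ratio of fli1a to fli1b was 1.75, 2.33 and 2.12 in the sih replicates and 1.78, 2.36 and 2.52 in the WT replicates. It overlapped between genotypes (difference -0.15, exact permutation p = 0.5, sign-flip p = 0.25 over the pairs).

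ets1, the neighbour of fli1a, had 172, 70.4 and 116 normalised counts in sih replicates 1, 2 and 3, against 152, 80.9 and 101 in the WT replicates. It was higher in sih in pairs 1 and 3 and lower in pair 2. The change was 0.06 ± 0.17, with an interval of 0.813-fold to 1.33-fold (adjusted p = 0.897 in the paired limma fit). Relative to fli1a its log2 ratio overlapped between genotypes, with a difference of 0.13 (exact permutation p = 0.7, sign-flip p = 0.5 over the pairs). fli1b and ets1 both changed sign with scaling by library totals (-0.10 and -0.12).

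erg was the member with the fewest reads, 23 to 66 per library, for which counting alone gives an error of 12.3% to 20.9%. It was at 62.4, 23.2 and 51.6 normalised counts in sih replicates 1, 2 and 3, against 60.5, 19.0 and 41.3 in the WT replicates. The sih library was higher in all 3 pairs, by 0.04, 0.27 and 0.31 on the log2 scale, and the genotypes overlapped widely. The change was 0.21 ± 0.25 (adjusted p = 0.703 in the paired limma fit), and 0.03 with scaling by library totals. Its interval, 0.81-fold to 1.65-fold, is the widest of the set. The other members had 76 to 1061 reads per library and counting errors of 3.07% to 11.5%.

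**Figure D3:**
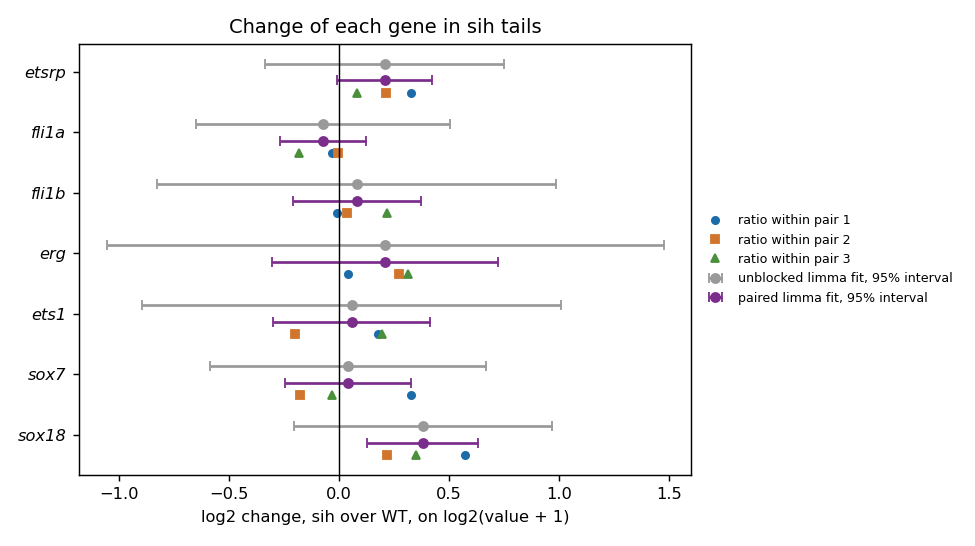
Log2 change of each gene in sih over WT tails (x axis, log2(value + 1) scale), with the estimate and 95% interval of the unblocked and of the paired limma fit and the ratio within each pair below. In the paired fit the interval of sox18 alone lies above 0, without adjustment for the number of genes tested.

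Several of these genes differed far more between replicate numbers than between genotypes. fli1a, fli1b, erg and ets1 were highest in replicate 1 and lowest in replicate 2, in sih and in WT libraries alike. That order was read from these genes' own values, so its share among the members is not a test. In both genotypes it was found in 4 of the 7 members and in 2744 of all 22813 genes tested. Of the endothelial surface list 4 of 23 genes had it, and of the other endothelial regulators 2 of 21. Of other Ets and other Sox factors, 3 of 20 and 3 of 21 had it. Being highest in replicate 1 in both genotypes, whatever the order of the others, was as frequent in the members (4 of 7) and more frequent elsewhere. It was found in 11 of 23 endothelial surface genes, 10 of 21 other endothelial regulators and 31.7% of all genes tested. Over both genotypes, libraries of replicate 1 averaged 282 normalised counts of fli1b, against 149.6 in replicates 2 and 3, a 1.89-fold difference. For erg, ets1 and fli1a the same fold was 1.82, 1.76 and 1.27. etsrp, sox7 and sox18 went the other way, at 0.910-fold, 0.825-fold and 0.830-fold. Of the members only sox18 was lowest in replicate 1 in both genotypes, as were 28.2% of all genes tested. etsrp and sox7 were lowest there in WT but not in sih libraries. What the numbers mark is not stated in the labels. These folds describe the libraries and were not tested.

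**Figure D4:**
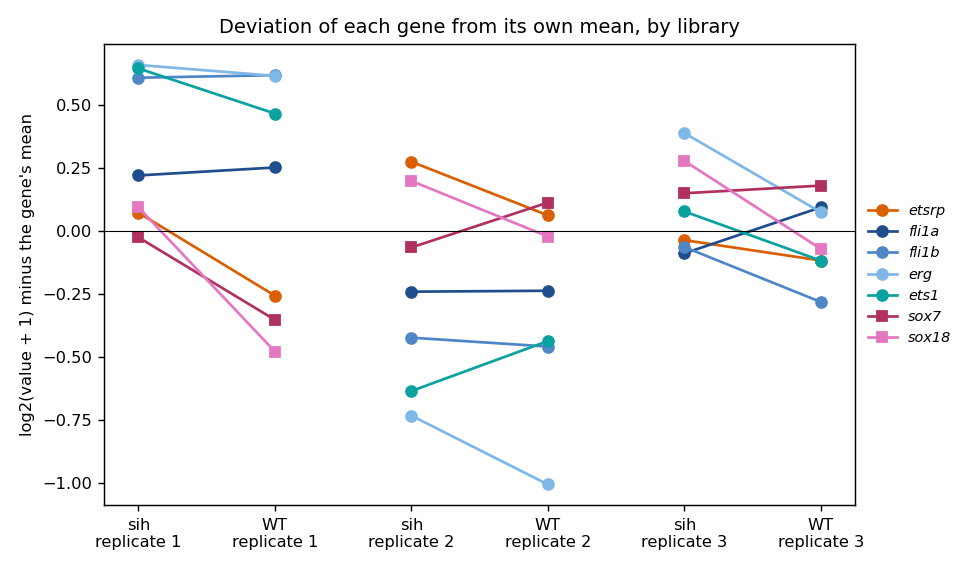
Deviation of log2(value + 1) of each gene from its own mean (y axis) in the 6 libraries, with a line joining the sih and WT library of one number (circles, Ets genes; squares, SoxF genes). fli1a, fli1b, erg and ets1 are high in both libraries of replicate 1 and low in both of replicate 2, whereas etsrp, sox7 and sox18 are lowest in WT replicate 1.

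Among the members, the most alike pair of profiles over the 6 libraries was fli1b with ets1, at a root mean square difference of 0.14 between centred log2 values. etsrp and sox18 (0.17) and sox7 and sox18 (0.18) came next. Many genes outside the set lay closer. By distance from fli1b, ets1 ranked 235 of 13247 genes, and fli1b ranked 151 from ets1. From sox18, etsrp ranked 413 and sox7 ranked 628, while sox18 ranked 593 from etsrp and 1307 from sox7. Of 13247 genes with a mean of at least 50, those nearest to fli1b, ets1 and fli1a were pdp1 (0.03), smtnl (0.03) and atp10d (0.04). Nearest to sox18 were rps16 (0.04), MVD (0.04) and mid1ip1b (0.05). zgc:101744 (0.04), shmt1 (0.04) and gnb1a (0.07) were nearest to etsrp, sox7 and erg. All of these share the libraries and their replicate numbers.

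Of the 23 genes found of the endothelial surface list, 22 had reads in every library, and plvapa (listed as si:dkey-208k22.3) was at 0 in sih replicate 3 and WT replicates 2 and 3. The list's normalised counts summed to between 6936 and 8625 in sih and between 6794 and 8783 in WT libraries. kdrl, an endothelial Vegf receptor, was at 631, 543 and 354 normalised counts in sih replicates 1, 2 and 3, against 730, 585 and 512 in the WT replicates (-0.28 ± 0.11, adjusted p = 0.153 in the paired limma fit). tek, listed as tie2 and encoding an angiopoietin receptor, lay on the other side, at 353, 398 and 695 in the sih replicates, against 342, 318 and 455 in the WT replicates (0.33 ± 0.12, adjusted p = 0.133 in the paired limma fit). Of the 23 genes, 12 had changes above 0 and 11 below. cdh5, which encodes VE-cadherin, was low and uneven, at 51.1, 25.9 and 10.0 in the sih replicates and 116, 17.3 and 7.86 in the WT replicates. The mean log2 level of the 22 list genes with a mean of at least 20 differed by -0.03 between sih and WT (exact permutation p = 0.8).

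Setting the members against that endothelial level raises each difference by the same 0.03. sox18 was 0.41 higher in sih on the log2 scale and higher in all 3 pairs (exact permutation p = 0.4), but only 0.08 higher without WT replicate 1. erg and etsrp were each 0.24 higher (p = 0.5 and 0.6, exact permutation tests). Without WT replicate 2 the erg difference turned to -0.11, and without WT replicate 1 that of etsrp to -0.02. The differences of fli1a, fli1b, ets1 and sox7 lay between -0.04 and 0.11, and each changed sign when some single library was left out. Relative to fli1a, etsrp was 0.28 higher in sih, in 3 of 3 pairs (exact permutation p = 0.4, sign-flip p = 0.25 over the pairs). Leaving out single libraries gave 0.092 (without sih replicate 2) to 0.50 (without WT replicate 2), and 0.096 without WT replicate 1.

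Related factors outside the set were read from the paired limma fit, which called 2.77% of all genes tested higher and 2.07% lower in sih. An unadjusted p under 0.05 in that fit was found in 6 other Ets and 4 other Sox factors, beside 18.8% of all genes. Paired edgeR called 1 and 3 of them, beside 7.89% of all genes. Of 20 tested genes of the other Ets factors, 1 rose and 0 fell, with a median of 0.12. It was ets2, the neighbour of erg, at 643, 649 and 1020 normalised counts in sih replicates 1, 2 and 3, against 480, 557 and 776 in the WT replicates (0.35 ± 0.10, adjusted p = 0.0496). Of 21 other Sox factors, 1 rose and 1 fell, with a median of 0.12. sox4b rose (0.51 ± 0.12, adjusted p = 0.0237) and sox11a fell (-0.53 ± 0.11, adjusted p = 0.0101), both SoxC factors. Without pair 1 the paired limma fit called no gene of the table, and without pairs 2 and 3 it called 2.21% and 1.07% of genes. Without pairs 1, 2 and 3 the change of ets2 was 0.31, 0.41 and 0.32, that of sox4b 0.61, 0.53 and 0.38 and that of sox11a -0.57, -0.65 and -0.39. Of the 3 genes, sox11a was called without pair 2, and none was called in the other 2 of these fits. With scaling by library totals, the paired limma fit called neither ets2 (0.16, adjusted p = 0.320) nor sox4b (0.33, adjusted p = 0.119). sox11a kept its call with that scaling (-0.72, adjusted p = 0.00249). Library totals move the median of all genes to -0.18, with 181 genes called higher and 2043 lower in sih. Such a shift favours calls of genes that fall, so the kept call does not set sox11a apart. Another SoxF gene, sox17, was near the floor, at 4.49 ± 3.34 normalised counts in sih and 2.49 ± 2.13 in WT tails (SD, n = 3 each).

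Of 21 other regulators of endothelium and its precursors, 2 rose and 0 fell, and the median was 0.05. tal1 was at 867, 650.3 and 560.1 normalised counts in sih replicates 1, 2 and 3, against 273, 274 and 264 in the WT replicates (1.33 ± 0.12, adjusted p = 8.38e-07 in the paired limma fit). lmo2 was at 470, 760 and 715 in the sih replicates, against 262, 458 and 442 in the WT replicates (0.75 ± 0.10, adjusted p = 0.000236). Neither was called without pair 1 (adjusted p = 0.228 and 0.378), where no gene was, and their changes there were 1.16 and 0.71. Both factors act in blood cells as well as in endothelial precursors. In the same libraries 18 of 20 erythroid genes rose and 0 fell (median 2.12), and 4 of 7 thrombocyte genes rose. Erythroid counts summed to between 165009 and 217537 in sih and between 38046 and 52583 in WT libraries, thrombocyte counts to between 584 and 736 and between 211 and 284. Mammalian Fli1 also acts in megakaryocytes, the counterparts of thrombocytes. The part of blood cells in the levels of tal1, lmo2 or the members was not tested.

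Genes of the endothelial surface and of arteries and veins were called in both directions. Over all genes tested, the paired limma fit called 2.77% higher and 2.07% lower in sih. In that fit, 8 of 23 endothelial surface genes and 6 of 19 artery and vein genes had an unadjusted p under 0.05, beside 18.8% of all genes. Paired edgeR called 3 and 4 genes of these lists, beside 7.89% of all genes. Of the 23 endothelial surface genes, cldn5b, a junctional claudin, rose (0.44 ± 0.10, adjusted p = 0.0171 in the paired limma fit) and cd34, listed as si:dkey-261h17.1, fell (-0.52 ± 0.12, adjusted p = 0.0161). The median of that list was 0.0048. Of 19 artery and vein genes, of which hey2 and nr2f2 are also among the regulators above, 3 rose and 1 fell, with a median of 0.05. Those that rose were the water channel gene aqp1a.1 (0.52 ± 0.08), the chemokine receptor gene cxcr4a (0.41 ± 0.10) and cldn5b, which is on both lists. The part of blood cells in their levels was not tested either. mrc1a, a scavenger receptor of veins, fell (-0.84 ± 0.15, adjusted p = 0.00238). Without pairs 1, 2 and 3 the changes were 0.35, 0.52 and 0.44 for cldn5b, -0.39, -0.72 and -0.46 for cd34, 0.50, 0.58 and 0.49 for aqp1a.1, 0.42, 0.49 and 0.31 for cxcr4a and -0.57, -1.12 and -0.82 for mrc1a. Without pair 1 none of these genes was called, as no gene of the table was. Without pair 3 the calls of cldn5b, cd34 and cxcr4a were lost (adjusted p = 0.131, 0.142 and 0.302 in the paired limma fit). The unblocked limma fit, which called no gene of the table, gave 0 calls in these lists; 2 of the other regulators and 1 of the artery and vein genes had an unadjusted p under 0.05, beside 1.03% of all genes.

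**Figure D5:**
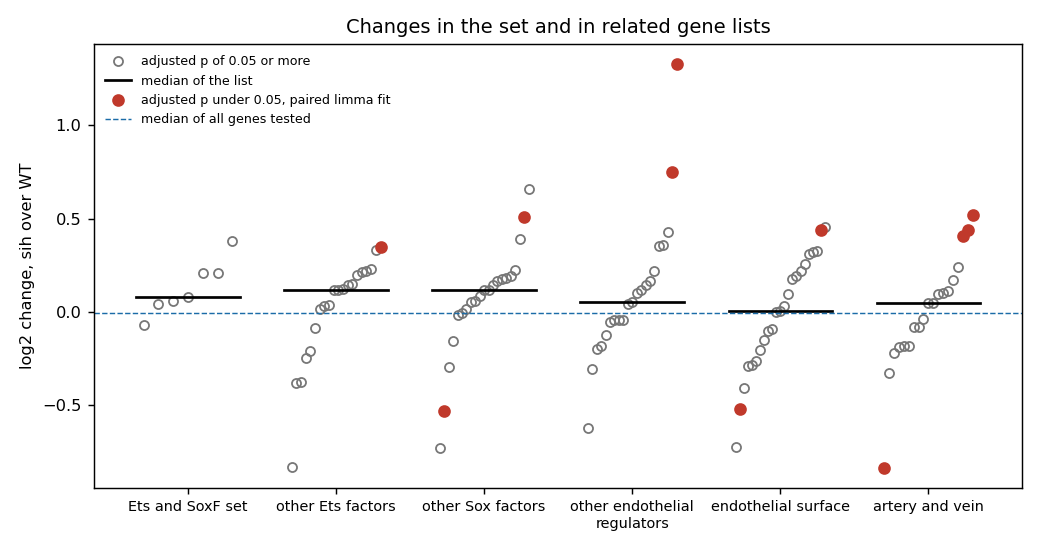
Log2 change in sih over WT tails (y axis) of each tested gene of the set and of 5 related lists, sorted within a list, with filled points for genes called in the paired limma fit, black bars for list medians and a dashed line for the median of all genes. No point of the Ets and SoxF set is filled, and tal1 (1.33) and lmo2 (0.75) stand highest among the other endothelial regulators.

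Markers of further cell types the tail could hold were present in both genotypes. Of 14 neutrophil and macrophage genes, 6 fell and 0 rose, and their counts summed to between 1740 and 2411 in sih and between 2937 and 3147 in WT libraries. Of 9 neural crest genes, snai1b rose (0.57 ± 0.14, adjusted p = 0.0245 in the paired limma fit). It was not called without pair 1, where no gene was, or without pair 3, where its change was 0.40. The neural crest counts summed to between 9926 and 16735 in sih and between 10412 and 15735 in WT libraries. The paired limma fit called 0 of 14 mesenchyme genes (3 at an unadjusted p under 0.05, beside 18.8% of all genes, and 1 called by paired edgeR), and their sums were 271257 to 368785 in sih and 265462 to 314351 in WT libraries. In zebrafish, fli1a and ets1 are also expressed outside endothelium, and the share of each cell type in their levels was not tested.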

How the data were processed

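The deposited values are a signal scale, read counts per gene divided by 1 factor per library, which the authors made from their reads. TopHat, HTSeq 0.5.3p5, edgeR 3.0.8 and the genome build Zv9 are named in the submitters' processing notes, without roles. Annotation, strand setting and the handling of reads that paralogs share: not given in the sources used here. Dividing by the value of 1 read turned 100% of the values above 0 into whole numbers (tolerance 1e-06), and log2 changes from the deposited scaling matched those from TMM factors within 1e-14. As lengths of transcripts were not used here, levels are not compared between genes.

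Values were tested on log2(value + 1) with limma 3.58.1 and a mean-variance trend (R 4.3.3), two-sided, for the genes that averaged 1 or more in sih or in WT. edgeR 4.0.16 and DESeq2 1.42.0 were run on the recovered reads, where every value came out whole; with the block they called 1799 and 986 genes. The limma fits and the paired edgeR fit were run on simulated counts, where the check was the sign of large changes. The share of small changes they recover is not given here. The permutation and sign-flip tests were run on a few made values. Labels give replicates 1 to 3 in each genotype. They are taken as pairs because every pair's deviations correlated above 0.1 (0.932, 0.884 and 0.852 in pairs 1, 2 and 3), although the labels give the numbers no meaning. That bound alone does not separate the pairs from other combinations. sih replicate 2 with WT replicate 3 (0.136) and sih replicate 3 with WT replicate 2 (0.101) also lay above it. The remaining combinations of unlike numbers lay between -0.730 and -0.596.

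Genes were matched by name, by name in other case or by the identifier of the current symbol. Of 195 entries in 11 lists, 18 were not found. The members and lists were chosen with earlier results of these data known. Named beyond the members are genes called in the paired or unblocked fit, up to 4 per list. That holds for the Ets, Sox, endothelial, artery and vein, and neural crest lists. No gene of the erythroid, thrombocyte, neutrophil and macrophage, or mesenchyme lists is named. Per member the gene with the smallest root mean square difference of centred log2 values is named, and for sox18 further ones. kdrl, tek, plvapa, cdh5 and sox17 were named after their values were seen. Exact permutation tests over 3 against 3 libraries are two-sided, unadjusted, do not use the pairs and cannot go below 0.1. Sign-flip tests over the 3 pairs are also unadjusted and cannot go below 0.25. Alternatives covered scaling, pseudocount, filter, test and libraries left out; those of the paired fit were added after seeing the data.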

Additional observations from a re-analysis of the deposited data

How the results depend on the processing

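The unblocked limma fit called no member under any scaling, pseudocount, filter or left-out library tried, and neither did unblocked edgeR or DESeq2, each run with 1 setting. With the replicate block 1 member, sox18, was called by edgeR (0.38, adjusted p = 0.0426) and, in limma, with DESeq2 size factors (0.40, adjusted p = 0.0457). Its adjusted p in the other paired alternatives ran from 0.0512 to 0.441.

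Over the whole table, 0 genes were called in the unblocked limma fit and 48 with unblocked DESeq2. With the replicate block there were 1105 (limma), 1799 (edgeR) and 986 (DESeq2). The paired limma fit called 2224 genes with library totals, 1438 with DESeq2 size factors, 410 with a pseudocount of 0.1 and 0 without a filter or without the block. Without pair 1, 2 or 3, which leaves 1 residual degree of freedom, it called 0, 504 or 244 genes. At an unadjusted p under 0.05 the unblocked limma and edgeR fits had 235 and 199 genes. The cause of these differences was not tested.

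Small changes turned sign. With library totals fli1b, ets1 and sox7 were at -0.10, -0.12 and -0.14 in both fits, where the median of all genes was -0.18. Leaving out single libraries in the unblocked fit gave -0.21 to 0.035 for fli1a, -0.20 to 0.41 for fli1b, -0.24 to 0.63 for erg, -0.25 to 0.39 for ets1 and -0.13 to 0.14 for sox7. In the paired fit, ets1 was at -0.0015, 0.19 and -0.0096 without pairs 1, 2 and 3, and sox7 lay between -0.10 and 0.15. Relative to the endothelial list, single libraries left out gave -0.022 to 0.42 for etsrp, -0.12 to 0.073 for fli1a, -0.058 to 0.33 for fli1b, -0.11 to 0.64 for erg, -0.10 to 0.40 for ets1 and -0.28 to 0.26 for sox7. Ratios ranged from 0.092 to 0.50 (etsrp to fli1a), -0.38 to 0.0018 (fli1a to fli1b), -0.031 to 0.60 (erg to fli1a) and -0.048 to 0.36 (ets1 to fli1a). erg had the fewest reads, 23 to 66 per library.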
